A study of Bos taurus with 18 samples.

Results

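Citrate cycle enzymes and the mitochondrial phosphoenolpyruvate carboxykinase PCK2 were followed in day 7 bovine blastocysts of both sexes. The members were the 9 genes CS, IDH2, IDH3A, SUCLG1, SUCLG2, FH, MDH1, MDH2 and PCK2, matched by the single gene symbol that GEO's platform annotation gives a probe set. This gave 12 of the 24016 probe sets tested, for 8 of the 9155 genes. CS, IDH3A, FH and MDH2 had 2 probe sets each, called brighter and dimmer below by their mean log2 value, and MDH1, which no probe set used here lists, was not analysed here. In RefSeq's table for ARS-UCD2.0 all 8 genes are autosomal, with CS on chromosome 5, PCK2 on chromosome 10, SUCLG1 on 11, FH on 16, IDH2 and IDH3A both on 21, SUCLG2 on 22 and MDH2 on 25.

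The embryos, labelled as mixed breed, were produced in vitro with sex-sorted semen, and every array was hybridised with the amplified RNA of 60 blastocysts of 1 sex and 1 sire, pooled on day 7. The groups were females of bull 3, bull 2 and bull 1 and males of bull 3, bull 2 and bull 1, with 3 arrays each, which makes 9 female and 9 male arrays. Values are log2 expression values of Affymetrix bovine arrays, on which a difference of 1 is a 2-fold difference. Each bull is 1 sire. Nothing in the labels ties the 3 pools of a group to separate runs of fertilisation, so the p-values reflect the variation among these pools alone. In a pool of whole embryos, fewer cells of a type and less RNA per cell cannot be told apart.

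The citrate cycle is the mitochondrial ring of reactions in which citrate synthase joins acetyl-CoA to oxaloacetate, and the carbon is then oxidised stepwise while electrons pass to NADH and other carriers. Isocitrate, succinyl-CoA, fumarate and malate are handled in turn by the other members, and PCK2 draws oxaloacetate out of the cycle as phosphoenolpyruvate. Cattle embryos depend largely on mitochondrial oxidation of pyruvate and amino acids before compaction and use more glucose as the blastocyst forms.

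Defining transcripts of the blastocyst were present. The brightest probe sets of KRT18, a keratin of the trophectoderm, POU5F1, a pluripotency factor, and IFNT2, an interferon tau, had means over 18 arrays of 14.04, 11.93 and 10.85, while that of KRT8 stood at 5.77. The brightest probe set of XIST, the RNA of the inactive X chromosome, ranged from 8.87 to 9.57 in females and from 5.93 to 7.28 in males. Array medians ranged from 5.33 to 5.49, and 4 arrays had a wider spread around the probe set medians than the others, namely female bull 1 replicate 3, male bull 1 replicate 2, male bull 2 replicate 1 and male bull 3 replicate 3.

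Between the sexes, PCK2 was 1.66-fold lower in females and IDH2, the mitochondrial isocitrate dehydrogenase that makes NADPH, was 1.24-fold higher in females. IDH3A, the catalytic subunit of the NAD-dependent isocitrate dehydrogenase, was 1.13-fold lower in females in its brighter probe set. The other 9 probe sets did not pass. By limma, adjusted by Benjamini-Hochberg over all probe sets at a threshold of 0.05, 3 of 12 member probe sets passed, 1 higher and 2 lower in females, against 15.6% of all probe sets (8.12% higher and 7.47% lower). The median sex difference of the 12 was -0.13 log2, and that of all probe sets was -0.03.

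**Figure D1:**
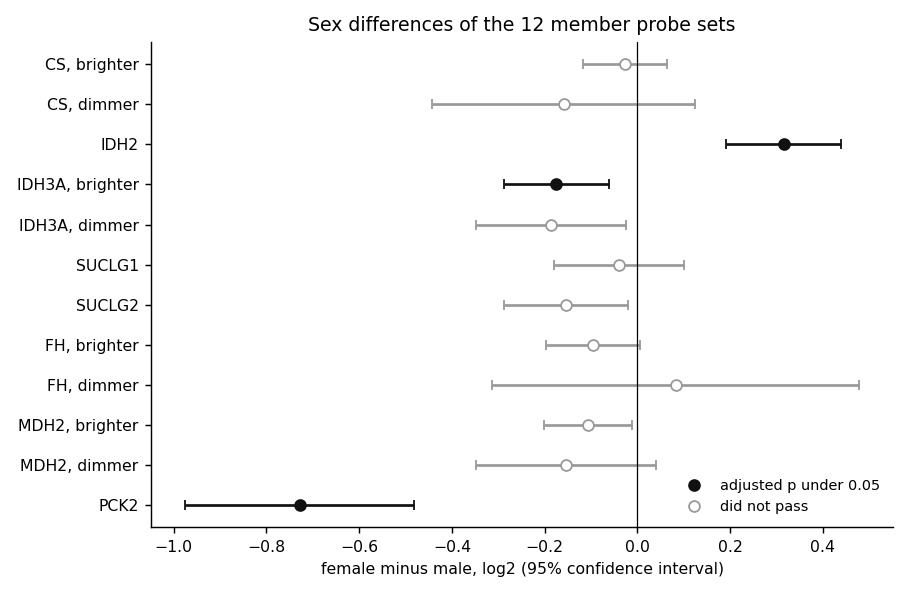
Female minus male difference in log2 expression (x axis) of each member probe set (y axis) averaged over 3 bulls. Points are estimates and bars 95% confidence intervals. IDH2 lies to the right of 0 at 0.32, PCK2 farthest to the left at -0.73, and of the other probe sets only the brighter one of IDH3A (-0.18) passed the test.

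PCK2 turns oxaloacetate into phosphoenolpyruvate inside mitochondria, a step that lets carbon of lactate or amino acids reach glycolytic intermediates. In bull 3, its single probe set had log2 values of 8.74, 8.81 and 8.52 in females against 9.36, 9.68 and 9.04 in males. In bull 2, the values were 8.10, 7.61 and 8.53 in females against 8.92, 9.15 and 8.92 in males. In bull 1, they were 8.42, 8.58 and 8.46 in females against 9.33, 9.25 and 8.67 in males. Within each bull every female array lay below every male array. Separation in either direction held for 6, 6 and 4 of the 12 member probe sets in bulls 3, 2 and 1, against 22.6%, 25.1% and 18.2% of all probe sets. Over all bulls the sexes overlapped, since 2 female arrays of bull 3 lay above the lowest male array of bull 1.

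The mean of PCK2 was 8.42 ± 0.36 in females, against 9.15 ± 0.30 in males (SD over 9 arrays each), a difference of -0.73 log2 with a standard error of 0.12 and an adjusted p of 0.000238 by limma. The difference was -0.67 in bull 3, -0.92 in bull 2 and -0.60 in bull 1, and 3 of 3 bulls had the same sign. Among the 12 member probe sets it was the only one to pass within a single bull, in bull 2 (adjusted p = 0.0144 by limma), where 3.13% of all probe sets passed. In bull 3 and in bull 1, where 4.18% and 4.2% of all probe sets passed, its adjusted p was 0.075 and 0.118. The call in bull 2 was lost without female replicate 2 of that bull (-0.68, adjusted p = 0.11), without male replicate 2 (-0.84, adjusted p = 0.0785) and without moderation of the variance (adjusted p = 0.0647). The test of whether the sex difference itself differed between bulls gave an unadjusted p of 0.521 for PCK2.

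By group mean, PCK2 stood highest in males of bull 3 (9.36 ± 0.32, n = 3), followed by males of bull 1 (9.08 ± 0.36), males of bull 2 (8.997 ± 0.134), females of bull 3 (8.69 ± 0.15), females of bull 1 (8.48 ± 0.08) and females of bull 2 (8.08 ± 0.46). The 3 male groups held the upper places. Neighbours in this order differed by no more than the larger of their 2 SDs, except that females of bull 3 lay below males of bull 2 and above females of bull 1 by more than that. Between bulls, PCK2 was 0.48 log2 higher in bull 3 than in bull 2 and did not pass (adjusted p = 0.0674 by limma).

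IDH2 makes 2-oxoglutarate and NADPH from isocitrate in mitochondria and is one of the sources of reducing power for glutathione there. In bull 3, its single probe set had log2 values of 8.43, 8.25 and 8.29 in females against 8.09, 7.93 and 7.90 in males. In bull 2, the values were 8.38, 8.25 and 8.15 in females against 8.05, 7.79 and 7.98 in males. In bull 1, they were 8.28, 8.39 and 8.13 in females against 7.98, 8.07 and 7.92 in males. Every one of the 9 female arrays lay above every male array, with 8.13 as the lowest female and 8.09 as the highest male value. IDH2 was the only member probe set without overlap of the sexes, against 2.92% of all probe sets.

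IDH2 averaged 8.28 ± 0.10 in females and 7.97 ± 0.10 in males (SD, n = 9 each), a difference of 0.32 log2 with a standard error of 0.06 (adjusted p = 0.000974 by limma). It was 0.35 in bull 3, 0.32 in bull 2 and 0.28 in bull 1, with adjusted p of 0.0667, 0.114 and 0.162 within these bulls. The female groups had means of 8.32, 8.26 and 8.27 and the male groups 7.97, 7.94 and 7.99 in bulls 3, 2 and 1. Within a sex these means differed by less than the SDs of the groups, which ran from 0.08 to 0.13. The calls of IDH2 and PCK2 for sex over all bulls held in every alternative run, with adjusted p of at most 0.0242 for IDH2 and at most 0.00583 for PCK2.

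**Figure D2:**
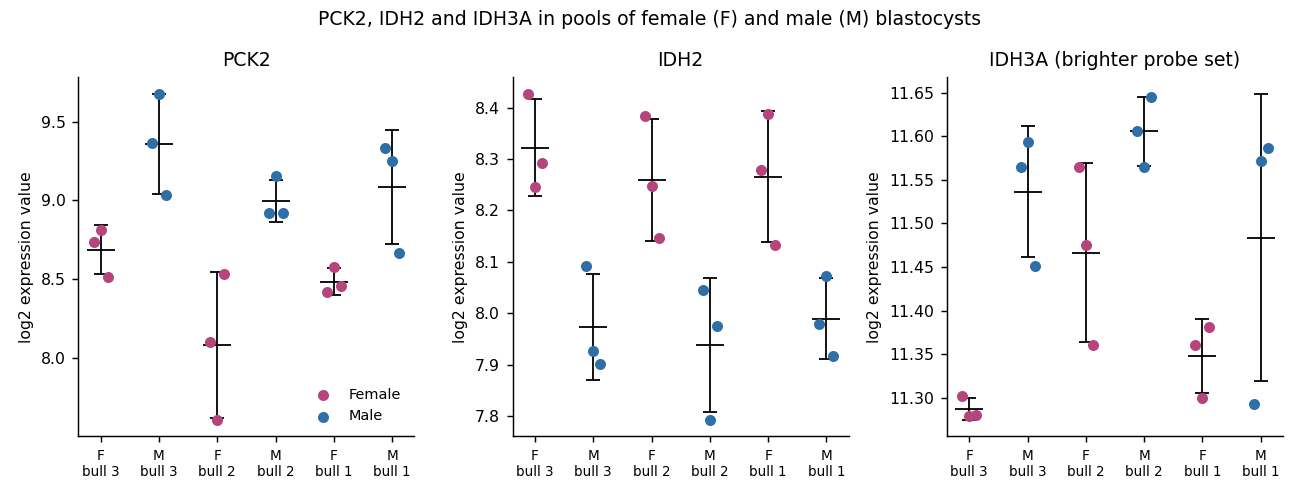
Log2 expression values (y axis) of PCK2, IDH2 and the brighter IDH3A probe set in each array, by sex (F female, M male) and bull (x axis). Points are arrays, the horizontal line is the mean and the bar 1 SD of 3 arrays. PCK2 lies lower in females than in males within each bull, and the lowest female array of IDH2 (8.13) lies above the highest male array (8.09).

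The NAD-dependent isocitrate dehydrogenase carries out the same step of the cycle as IDH2 but makes NADH, and it is built of the catalytic subunit IDH3A with regulatory partners. The brighter IDH3A probe set ranged from 11.28 to 11.56 in females with a median of 11.36, and from 11.29 to 11.64 in males with a median of 11.57. Most males lay above most females, and the ranges overlapped, with 2 females of bull 2 at 11.56 and 11.47, male bull 1 replicate 1 at 11.29 and the next lowest male at 11.45. The means were 11.37 ± 0.10 in females and 11.54 ± 0.11 in males (SD, n = 9 each), with a difference of -0.18 log2 (adjusted p = 0.0323 by limma). The sign was the same in 3 of 3 bulls, at -0.25, -0.14 and -0.14 in bulls 3, 2 and 1. This call was lost without bull 2 (adjusted p = 0.142), without bull 3 (adjusted p = 0.302) and with bull as the replicate (adjusted p = 0.0986). It was also lost in 10 of 18 fits without 1 array (adjusted p = 0.052 to 0.0772), in which the array left out was any female of bull 3, replicate 2 or 3 of the bull 2 females, replicate 2 of the bull 1 females, replicate 1 or 2 of the bull 3 males, or replicate 3 of the males of bull 2 or bull 1.

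The dimmer IDH3A probe set gave nearly the same sex difference of -0.19 log2, with a wider spread (6.92 ± 0.25 in females and 7.11 ± 0.20 in males, n = 9 each, adjusted p = 0.123 by limma). The mean of both IDH3A probe sets differed by -0.18 log2 and passed (adjusted p = 0.035). The dimmer probe set alone differed by -0.12 in bull 3, -0.01 in bull 2 and -0.43 log2 in bull 1. The females of bull 1 had 6.71, 6.69 and 6.42, all below the males of that bull at 6.85, 7.30 and 6.95. The test of a sex difference that differs between bulls gave an unadjusted p of 0.0942 for this probe set, the smallest among the 12. After adjustment the interaction test called 0 of 12 member probe sets, against 0% of all probe sets, and at an unadjusted p under 0.05 it called 0 of 12 against 2.73% of all.

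Succinyl-CoA ligase makes GTP or ATP directly in the cycle, with SUCLG1 as the alpha subunit common to both forms and SUCLG2 as the beta subunit of the form that uses GDP. SUCLG1 ranged from 9.74 to 10.13 in females with a median of 9.85, and from 9.70 to 10.33 in males with a median of 9.90, so that the sexes overlapped almost wholly. Its difference of -0.04 log2 had a 95% confidence interval from -0.18 to 0.10. SUCLG2 ranged from 9.96 to 10.20 in females with a median of 10.10, and from 9.98 to 10.42 in males with a median of 10.24. Its difference of -0.15 log2 did not pass (adjusted p = 0.12 by limma). It passed without male bull 3 replicate 3 (-0.19, adjusted p = 0.0293) and without the 4 arrays of wide spread (-0.19, adjusted p = 0.0273). The male array left out had the lowest male SUCLG2 value, at 9.98.

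Fumarase, FH, adds water to fumarate, and malate dehydrogenase 2, MDH2, closes the cycle by making oxaloacetate. The brighter FH probe set averaged 11.31 ± 0.05 in females and 11.40 ± 0.07 in males, a difference of -0.10 log2 (95% confidence interval -0.20 to 0.00, adjusted p = 0.213 by limma). The brighter MDH2 probe set ranged from 12.20 to 12.35 in females with a median of 12.29, and from 12.33 to 12.48 in males with a median of 12.39. Only values between 12.33 and 12.35 occurred in both sexes. Its difference of -0.11 log2, with -0.10, -0.11 and -0.11 in bulls 3, 2 and 1, did not pass (adjusted p = 0.128 by limma).

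The call for MDH2 changed in 4 of the alternative fits. The residual SD of its brighter probe set was 0.04 log2. Without moderation of the variance over all probe sets the same difference had an adjusted p of 0.00322, with an intensity trend 0.0172, among the brighter 50% of probe sets 0.0431 and with array weights 0.0214. The brighter FH probe set likewise passed without moderation (adjusted p = 0.0447). The dimmer MDH2 probe set averaged 5.49 ± 0.21 in females and 5.64 ± 0.21 in males, with adjusted p = 0.314 by limma, and it passed with array weights (-0.21, adjusted p = 0.0455). The dimmer FH probe set averaged 8.18 ± 0.29 in females and 8.10 ± 0.64 in males, and its difference of 0.08 log2 (95% confidence interval -0.31 to 0.48) turned to -0.12 without male bull 3 replicate 3, which stood at 6.45.

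Citrate synthase, CS, the entry enzyme of the cycle, showed no detectable sex difference. Its brighter probe set ranged from 12.68 to 12.76 in females and from 12.66 to 12.83 in males, with a difference of -0.03 log2 (95% confidence interval -0.12 to 0.06). Its dimmer probe set gave -0.16 log2 (95% confidence interval -0.44 to 0.12, adjusted p = 0.507 by limma).

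Between bulls, CS was the only member to pass, and only in its dimmer probe set. That probe set had log2 values in bull 3 of 9.20, 9.34 and 9.95 in females and 9.94, 9.72 and 8.75 in males. In bull 2 it had 10.51, 10.58 and 10.54 in females and 10.75, 10.63 and 10.55 in males. In bull 1 it had 10.65, 10.31 and 10.72 in females and 10.70, 11.09 and 11.09 in males. All 6 arrays of bull 3 lay below all 12 arrays of the other bulls. The means were 9.48 ± 0.47 in bull 3, 10.59 ± 0.09 in bull 2 and 10.76 ± 0.30 in bull 1 (SD, n = 6 each).

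The dimmer CS probe set was 2.42-fold lower in bull 3 than in bull 1 (a difference of -1.28 log2, with adjusted p = 0.000543 by limma) and 2.16-fold lower than in bull 2 (-1.11 log2, adjusted p = 0.0011), and these comparisons share the arrays of bull 3. Of the 12 member probe sets, 1 passed for bull 3 against bull 1, where 3.53% of all probe sets passed, and 1 for bull 3 against bull 2, where 3.74% did. For bull 2 against bull 1, 0 of 12 passed by limma, against 1.52% of all probe sets. At an unadjusted p under 0.05, 2 of 12 passed there, against 17.8% of all. Non-overlap of the arrays held for 1 of 12 in each of the comparisons with bull 3, against 1.5% and 2.97% of all probe sets for bull 1 and bull 2 as the other bull.

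The brighter CS probe set did not share this difference. It averaged 12.78 ± 0.04 in bull 3, 12.71 ± 0.04 in bull 2 and 12.72 ± 0.02 in bull 1. The difference between the probe sets in bull 3 against bull 1 was 1.33 log2, and in bull 3 against bull 2 it was 1.18 log2. Each had p = 0.005 in an exact two-sided permutation test of bull labels within each sex, the smallest p that its 400 arrangements allow, and adjusted p = 0.03 over 12 such tests of 4 genes. The count of 2 calls fell to 0 when any female of bull 2, replicate 1 or 3 of the bull 1 females or replicate 1 of the bull 2 males was left out, and was 4 when replicate 2 of the bull 3 males was left out. Fewer arrangements remain without an array, so a lost call need not mean a smaller gap.

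**Figure D3:**
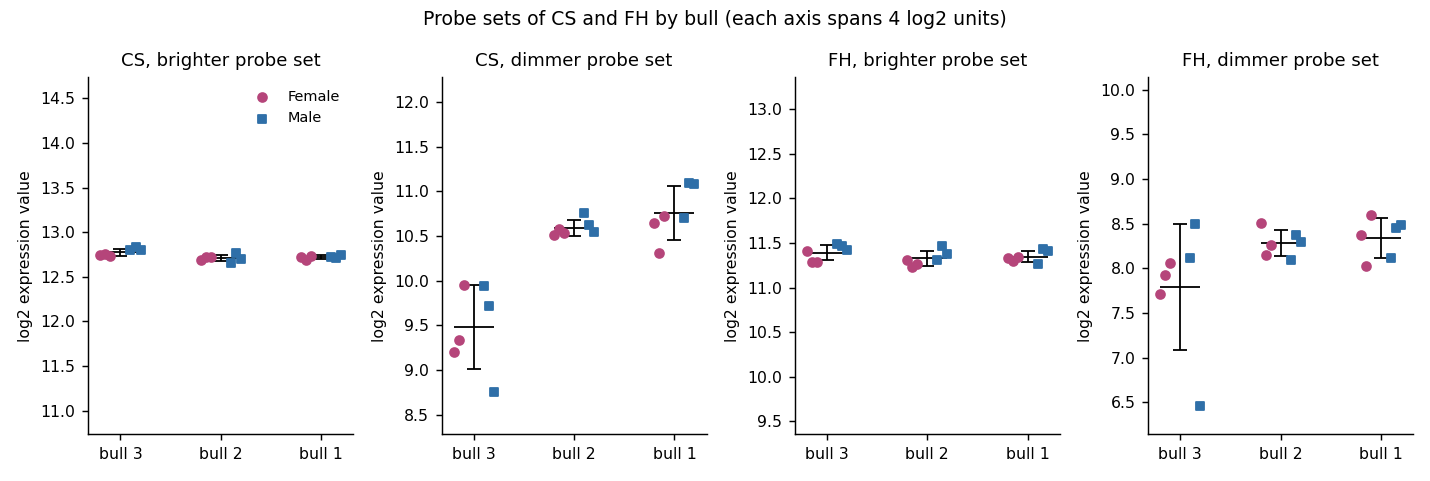
Log2 expression values (y axes, each spanning 4 log2 units) of both probe sets of CS and FH in each array by bull (x axis), with circles for females and squares for males. Horizontal lines are means and bars 1 SD of 6 arrays. The dimmer CS probe set averages 9.48 in bull 3, 10.59 in bull 2 and 10.76 in bull 1, while the brighter one stays between 12.66 and 12.83 on every array.

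An index of 5′ against 3′ signal, which can reflect RNA integrity, was lowest on average in bull 3. The dimmer CS and FH probe sets were also lowest there by mean, but an association with the index was not tested. In bull 3 against bull 1 the dimmer IDH3A and MDH2 probe sets differed by 0.32 and -0.001 log2 and did not pass by limma. The mean 5′ minus 3′ signal of the actin, glyceraldehyde phosphate dehydrogenase and elongation factor control transcripts averaged -0.69 log2 in bull 3, -0.25 in bull 2 and -0.10 in bull 1. Male bull 3 replicate 3 had the lowest index of the 18 arrays, at -1.27, and also the lowest value of the dimmer CS probe set (8.75) and of the dimmer FH probe set (6.45). With the index as a covariate, which was added after seeing the data, the dimmer CS probe set differed by -0.68 log2 in bull 3 against bull 1 (adjusted p = 0.206 by limma) and by -0.67 log2 in bull 3 against bull 2 (adjusted p = 0.0335). The count of all probe sets that passed fell to 12 with the covariate, against 848 without it, for bull 3 against bull 1, and to 143 against 897 for bull 3 against bull 2. The same covariate left the sex differences at -0.73 log2 for PCK2 and 0.31 log2 for IDH2. The index averaged -0.35 in females and -0.35 in males, so the covariate could shift these differences little. The index itself differed between bulls, so the covariate takes up part of a difference between bulls whatever its cause. Index and bull cannot be fully told apart here, and a role of RNA integrity was not tested. The labels name no scan or production batch, and a bull and such a batch cannot be told apart.

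The dimmer FH probe set showed a like pattern without a call. It had 7.71, 7.93 and 8.05 in females and 8.12, 8.49 and 6.45 in males of bull 3, 8.28 ± 0.15 in bull 2 and 8.34 ± 0.22 in bull 1 (SD, n = 6). It differed by -0.55 log2 in bull 3 against bull 1 (adjusted p = 0.2 by limma). Its brighter partner averaged 11.39 ± 0.09 in bull 3, 11.33 ± 0.08 in bull 2 and 11.35 ± 0.06 in bull 1. The gap between both FH probe sets in bull 3 against bull 1 was 0.59 log2 (exact permutation test, p = 0.035, adjusted p = 0.07), and that between both IDH3A probe sets was -0.33 log2 (p = 0.035, adjusted p = 0.07). For MDH2 it was 0.09 log2 (adjusted p = 0.64).

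**Figure D4:**
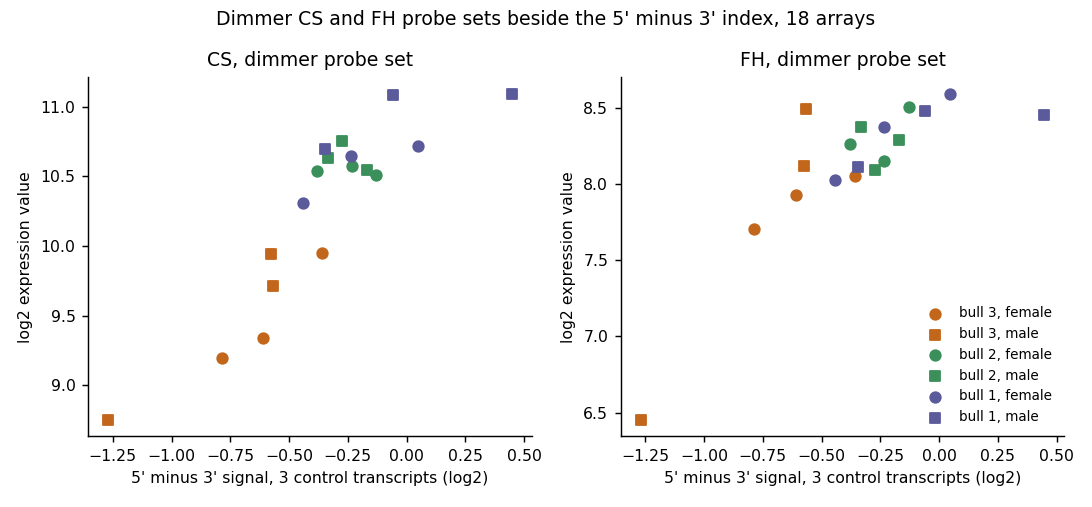
Log2 expression value (y axes) of the dimmer CS and dimmer FH probe sets against the mean 5′ minus 3′ log2 signal of 3 control transcripts (x axes), 1 point per array, coloured by bull, with circles for females and squares for males. Male bull 3 replicate 3 lies at the lower left of both panels, at an index of -1.27 with 8.75 for CS and 6.45 for FH.

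For sex, no gap between the probe sets of a gene passed in an exact two-sided permutation test of sex within bulls. The gaps between brighter and dimmer probe sets were 0.13 log2 for CS, 0.01 for IDH3A, -0.18 for FH and 0.05 for MDH2, with adjusted p from 0.852 to 0.93 over 4 pairs. The residual SDs of the dimmer probe sets were 0.34, 0.17, 0.48 and 0.21 log2 for these genes and those of the brighter ones 0.03, 0.09, 0.06 and 0.04.

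Of 8 other measured enzymes of the cycle, from a list of 11, 1 was higher and 1 lower in females. IDH3G, the X-linked gamma subunit and partner of IDH3A, stood at 9.21 ± 0.05 in females and 8.67 ± 0.18 in males (0.53 log2, adjusted p = 1.03e-05 by limma). Its sign was opposite to that of both IDH3A probe sets. Of these only the brighter passed, and it lost its call in 10 of 18 fits without 1 array. SDHA, the flavoprotein of succinate dehydrogenase, stood at 10.49 ± 0.05 in females and 10.71 ± 0.04 in males (-0.22 log2). SDHC and SUCLA2, the beta subunit of the ATP-forming succinyl-CoA ligase, had differences of -0.13 and -0.18 log2 and did not pass, and the dimmer SUCLA2 probe set gave 0.18 log2, also without passing. The list's median was -0.09 log2, against -0.01 over all genes by their brightest probe set, of which 11.5% were higher and 9.31% lower in females.

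Around pyruvate entry, 3 of 10 measured genes were higher and 1 lower in females, against 11.5% and 9.31% of all genes. PDK3, an X-linked kinase that switches pyruvate dehydrogenase off, was at 8.56 ± 0.09 in females and 7.60 ± 0.15 in males (0.96 log2). PDHA1, the X-linked catalytic subunit of that complex, was 0.39 log2 higher in females in its brightest probe set, which had a mean of 11.49. Its 3 dimmer probe sets differed by 0.53, 0.16 and -0.29 log2, and the first and the last passed. Their means over all arrays were 5.51, 5.84 and 3.06 in the same order. DLAT, the acetyltransferase of the complex, was at 8.35 ± 0.21 in females and 8.63 ± 0.21 in males (-0.28 log2, adjusted p = 0.00432 by limma), with -0.12 and -0.26 log2 in its other probe sets, which did not pass. MPC2, a subunit of the mitochondrial pyruvate carrier, was 0.20 log2 higher in females (adjusted p = 0.0359 by limma), and its partner MPC1 differed by -0.03 log2 and did not pass.

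Among 14 measured genes that feed the cycle, mirror it in the cytosol or carry its intermediates, 3 were higher and 5 lower in females. Over all genes 11.5% were higher and 9.31% lower. ACO1, the cytosolic aconitase, stood at 8.19 ± 0.11 in females and 8.57 ± 0.15 in males (-0.37 log2, adjusted p = 7.8e-05 by limma). ME2, the mitochondrial malic enzyme, differed by -0.31 log2. GOT2, the mitochondrial aspartate aminotransferase, differed by -0.21 log2, and by -0.14 in its other probe set, which did not pass. SLC25A12, an aspartate and glutamate carrier, was 0.31 log2 higher in females in its brightest probe set, while its other probe sets gave -0.06 and -0.05. PCK1, the cytosolic counterpart of PCK2, had a mean of 2.99 over all arrays, far below the lowest array median of 5.33. At this low level its sex difference was 0.05 log2 (95% confidence interval -0.12 to 0.23).

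**Figure D5:**
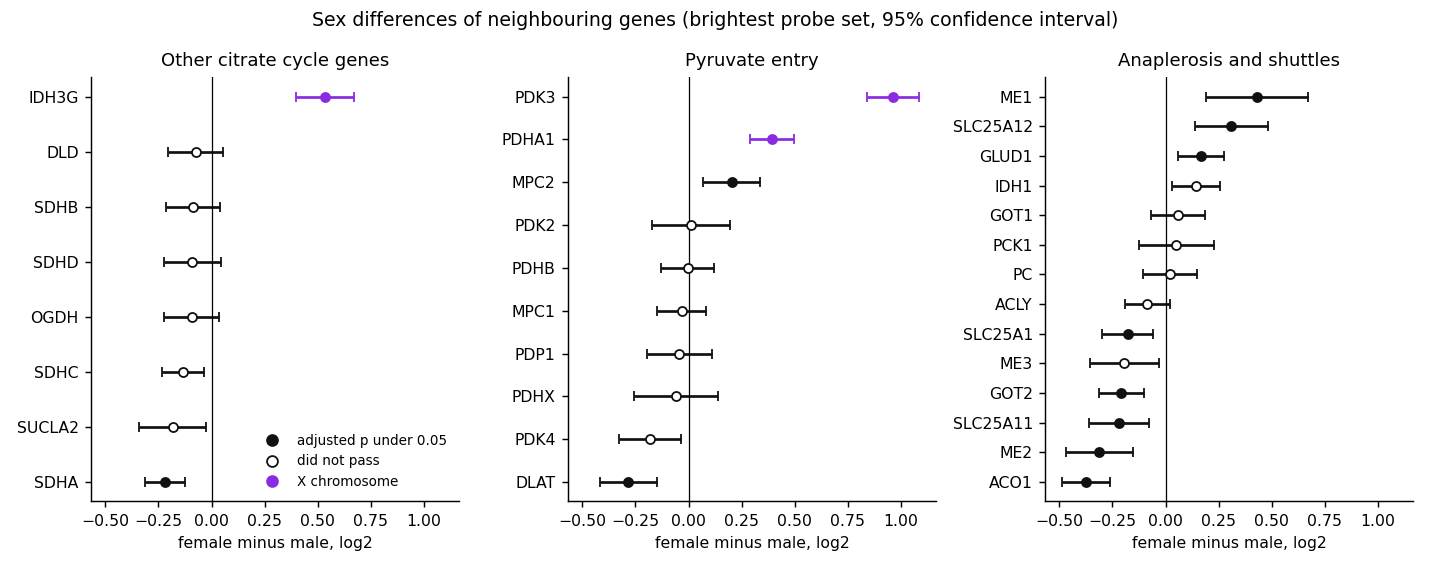
Female minus male difference in log2 expression (x axes) of the brightest probe set of genes around the citrate cycle (y axes), in 3 lists, with 95% confidence intervals as bars. Filled points passed the test and violet points are X-linked. PDK3 (0.96), IDH3G (0.53) and ME1 (0.43, with 0.13 in its dimmer probe set, which did not pass) lie farthest to the right and ACO1 (-0.37) farthest to the left.

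PCK2 belongs, in human and mouse cells, to the genes switched on by the amino acid stress factor ATF4. Of 12 measured genes of serine synthesis and amino acid stress, 0 passed for sex by limma. Among all genes by their brightest probe set, 11.5% passed as higher and 9.31% as lower in females. The list median was -0.11 log2, against -0.01 over all genes. At an unadjusted p under 0.05, 4 of 12 passed, a share close to the 33.5% of all genes by their brightest probe set. These 4 were SHMT2 (-0.20), DDIT3 (-0.17), SESN2 (-0.17) and PSAT1 (-0.27), with adjusted p of 0.0648 to 0.162, and the dimmer probe sets of SESN2 (-0.16 and -0.25) and PSAT1 (-0.37 and -0.36) had the same sign. TRIB3, PSPH and ATF3 of the same list went the other way, at 0.13, 0.09 and 0.07 log2, and did not pass. ATF4 itself differed by -0.11 log2 (adjusted p = 0.399). A part of ATF4 in the sex difference of PCK2 was not tested.

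The genes whose values ran most like PCK2 over the 18 arrays, among 6302 genes brighter than the median probe set, were HINT2 (Pearson r = 0.940), BPHL (0.915), CBS, which makes cystathionine from homocysteine (0.910), and ACO1 (0.898). All 4 were lower in females, with differences of -0.28, -0.81, -0.38 and -0.37 log2. The dimmer CS probe set ran most like PDXK, SYNCRIP, RBM25 and RPS6KB1 (r = 0.915 to 0.932), with differences in bull 3 against bull 1 of -0.62, -0.45, -0.64 and -0.45 log2. The brighter CS probe set ran most like ZDHHC6, WBP11, ACTN4 and KNOP1 (r = 0.826 to 0.884). The arrays of a group share sex and bull, so that these values include the differences between groups.

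Markers of embryonic lineages and of other cells were set beside the sex differences. The mean log2 level of 8 trophectoderm markers ranged from 8.10 to 8.46 in females and from 8.07 to 8.34 in males. That of 5 markers of the inner cell mass ranged from 9.45 to 9.70 in females and from 9.24 to 9.50 in males. For 13 cumulus and granulosa markers the range was 5.73 to 6.28 in females and 5.47 to 6.15 in males, for 8 oocyte markers 4.66 to 5.41 in females and 4.66 to 5.14 in males, for 6 blood cell markers 4.66 to 5.23 in females and 4.65 to 5.02 in males, and for 7 sperm markers 5.70 to 5.98 in females and 5.41 to 5.80 in males. Of these lists 2, 2, 4, 1, 3 and 2 genes passed as higher and 1, 0, 1, 0, 1 and 2 as lower in females, in the order given. Among all genes by their brightest probe set, 11.5% passed as higher and 9.31% as lower. Over all bulls the list means overlapped between the sexes for all 6 lists. Within bull 2 and within bull 3 the inner cell mass and sperm list means lay higher in females than in males without overlap. In bull 3 the oocyte and blood cell list means did so too. Of all probe sets taken singly, 25.1% in bull 2 and 22.6% in bull 3 separated the sexes in either direction. By mean over all arrays, 6 of the 8 oocyte and 4 of the 6 blood cell markers lay below the median probe set. Single markers also differed, 3 of them by more than PCK2. PRM1, a sperm protamine, stood at 6.65 ± 0.18 in females and 4.92 ± 0.39 in males (1.73 log2, adjusted p = 1e-07 by limma). TNP1, a spermatid transition protein, was 0.88 log2 higher in females, HBB, a beta globin, 0.81 and IFNT2 0.59. The dimmer HBB probe sets gave 0.71, 0.15 and 0.05 log2, of which only the first passed. Also higher in females were SPP1 and CYP19A1 (0.56 each), HSD3B1 (0.44), TYROBP (0.40) and OOEP (0.36). DCN and DLX3 (0.33 each), STAT3 (0.28), HBA (0.26) and COL1A1 (0.19) passed as higher too. The dimmer probe sets of CYP19A1, STAT3 and COL1A1 did not pass. The markers that passed as lower in females were TFAP2A (-0.54), CD68 (-0.43), SPA17 (-0.28), COL1A2 (-0.26, and -0.06 without passing in its dimmer probe set) and ODF2 (-0.25). The part of these markers in the sex differences of PCK2, IDH2 and IDH3A was not tested.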

How the data were processed

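Values deposited by the authors are on a log2 scale, 1 per probe set and array. RMA and Partek 6.4 appear in the submitters' processing notes, with no role given. Per the labels' protocols, 50 ng of total RNA was amplified for each pool of 60 blastocysts. If RMA made these values, it gave all arrays like distributions, and a shift of every transcript would be hidden. Arrays have no depth of reading, and their number sets the precision.

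Of 24128 probe sets, 112 array controls were left out and 24016 tested. In the platform annotation 13292 have 1 gene, 86 have several and 10638 have none. RefSeq's gene table (ARS-UCD2.0) gave current symbols for 13263 by gene number. A model of 6 group means was fitted in limma 3.58.1 (R 4.3.3) with moderated variance and 12 residual degrees of freedom, and all p-values were adjusted by Benjamini-Hochberg over the probe sets tested. Gaps between the probe sets of a gene were tested by exact permutation, with 8000 arrangements for sex and 400 for each pair of bulls. The limma contrasts for sex, bull 2 against bull 1 and the interaction were tested on simulated data.

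The members and gene lists were chosen with earlier results of these data known. Named are all member probe sets, up to 4 genes of each list by smallest p for sex, and the 4 genes that correlate best with each PCK2 and CS probe set. ME1, MPC1, PCK1, ATF4, TRIB3, PSPH, ATF3, single marker genes, the blastocyst and XIST checks and the dimmer probe sets of named genes were added after their values were seen. Each list gene is represented by its brightest probe set. Alternatives were an additive model, a block for the sample number, quantile normalization, the brighter 50% of probe sets, an intensity trend, no moderation, array weights, leaving out an array or a bull, bull as the replicate and gene means over probe sets. After seeing the data, the gaps were also recomputed under such settings, 4 arrays with a relative spread above 0.25 were left out, and the 5′ minus 3′ index was entered as a covariate.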

Additional observations from a re-analysis of the deposited data

Results flagged for a closer look

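Among 24 sets of 9 arrays (12 probe sets, 2 sexes), 4 held an array far from the others of its sex, and chance flags about 1 in 20 such sets. SUCLG1 stood at 10.13 in female bull 1 replicate 3, with the other 8 females from 9.74 to 9.93, and at 10.33 in male bull 1 replicate 2, with the other 8 males from 9.70 to 9.95. The dimmer FH probe set stood at 6.45 in male bull 3 replicate 3, with the other males from 8.10 to 8.49. The dimmer MDH2 probe set stood at 5.97 in female bull 1 replicate 3, with the other females from 5.23 to 5.54. All 3 arrays belong to the 4 of wide spread.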

How the results depend on the processing

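PCK2 and IDH2 kept their sign and their call for sex in the 18 fits without 1 array (-0.80 to -0.65 and 0.29 to 0.34 log2) and in 14 other fits, and the other calls that moved stand in the report. The count for sex was 3743 probe sets, 2044 without bull 2, 2182 without bull 3 and 3175 to 3983 without 1 array. Within bulls 3, 2 and 1 the counts were 1004, 752 and 1008. They were 3144, 1799 and 1740 with array weights, and 1545 in bull 3 and 1130 in bull 2 without the 4 arrays of wide spread. Without 1 array they ran from 465 (without female bull 3 replicate 3) to 1317, from 422 (without female bull 2 replicate 2) to 956, and from 625 (without female bull 1 replicate 3) to 1240. For bull 3 against bull 2, bull 3 against bull 1 and bull 2 against bull 1 the counts were 897, 848 and 364. They were 2693, 2045 and 1161 with array weights. Without moderation they were 555 and 459 for the comparisons with bull 3, and with the 5′ minus 3′ index 143 and 12. Bull 2 against bull 1 gave 569 among the brighter 50% of probe sets. Without the arrays of wide spread bull 3 against bull 1 gave 466 and bull 2 against bull 1 gave 228. Without 1 array they ran from 384 (without female bull 2 replicate 1) to 1337, from 271 (without female bull 3 replicate 1) to 1594 (without male bull 3 replicate 2) and from 133 (without female bull 2 replicate 1) to 607 (without male bull 1 replicate 3). The interaction gave 0 calls in every fit that could test it. Of the members, 5 passed for sex without moderation and 5 with array weights, and 2 to 4 without 1 array. The gaps between probe sets of a gene between bulls gave 0 to 4 calls without 1 array. The dimmer FH probe set, at 0.08 log2 for sex, turned to -0.050 with array weights, -0.0068 as the mean of both probe sets, -0.18 without the arrays of wide spread and -0.12 to 0.22 without 1 array. SUCLG1, at -0.04, turned to 0.018 without bull 1 and ran from -0.073 to 0.0027 without 1 array. None of these values of FH or SUCLG1 passed, and the cause of these changes was not tested. Arrays of 1 number correlated at a median of 0.00145 across groups (45 pairs) and did not pair. With the number as a replicate block 3527 probe sets passed for sex, the brighter IDH3A probe set was lost (adjusted p = 0.0515 by limma), 2 members passed, and no other member call changed. The number of arrays limits the precision of all these values.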
